A study of Mus musculus with 7 samples.

Results

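The 10 genes described here encode mouse chitinase-like proteins, galectins and their direct partners, and were followed in macrophages sorted from intracranial gliomas. They were taken by symbol, after the gene IDs of the count files had been matched without their version: Chil1, Chil3, Chid1, Tmem219, Lgals1, Lgals3, Lgals3bp, Lgals4, Lgals8 and Lgals9. These are 10 of 55385 gene IDs. Chil1 is the mouse symbol of Chi3l1, the gene that the hairpin was directed against. The shChi3l1 group held 3 libraries of macrophages from tumours of QPP7 glioblastoma cells carrying a Chi3l1 hairpin. The shSC group held 4 libraries from tumours of QPP7 cells carrying the control hairpin. All hosts were C57BL/6 mice injected in the brain with 100000 cells, and it was these injected cells that carried the hairpin, so the macrophages came from the host. The labels give no age or sex and do not say whether each library came from 1 mouse. P-values therefore measure the spread between these libraries, which may be in part technical.

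Chitinase-like proteins keep the fold of enzymes that cleave chitin but have lost that activity, and they are secreted by macrophages, neutrophils and other cells. Chitinase-3-like-1, the product of Chil1, is known to signal through a complex of interleukin-13 receptor alpha 2 and the membrane protein TMEM219, and to bind galectin-3. Galectins are lectins that recognise beta-galactosides on glycoproteins. They are made without a signal peptide, act inside cells as well as outside, and several of them restrain T cells in tumours. The question put by the comparison was whether macrophages differed between tumours with and without Chi3l1 knockdown, in a study of chitinase-3-like-1 complexes and macrophage-mediated immune suppression in glioblastoma.

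Promoters of 2 genes are shown because Lgals3bp and Lgals9 were highest in the same library, where several interferon-stimulated genes were highest too, and because they hold the motifs searched. Lgals8 was highest in that library as well, and its window holds neither motif. Each sequence is the RefSeq window of 250 bases before to 50 bases after the annotated start, on the gene's own strand, in build GRCm38.p6. Capitals mark the matches to GAAANNGAAA, the core of the interferon-stimulated response element, or to GAAANNNGAAA, the same half-sites with 1 more base between them.
Lgals9: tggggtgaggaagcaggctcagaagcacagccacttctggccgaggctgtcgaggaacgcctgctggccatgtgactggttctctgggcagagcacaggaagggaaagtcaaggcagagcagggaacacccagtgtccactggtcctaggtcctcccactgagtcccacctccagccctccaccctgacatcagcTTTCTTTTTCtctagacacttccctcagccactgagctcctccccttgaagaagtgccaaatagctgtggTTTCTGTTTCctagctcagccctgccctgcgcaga
Lgals3bp: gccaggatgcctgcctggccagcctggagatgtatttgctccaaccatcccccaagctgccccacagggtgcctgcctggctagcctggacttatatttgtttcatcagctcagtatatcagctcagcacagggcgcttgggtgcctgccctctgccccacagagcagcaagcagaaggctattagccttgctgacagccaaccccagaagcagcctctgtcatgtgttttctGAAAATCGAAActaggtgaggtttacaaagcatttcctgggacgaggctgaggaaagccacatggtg
The Lgals9 window lies at chr11:78984875-78985174 on the minus strand, and the Lgals3bp window at chr11:118401910-118402209 on the minus strand. In Lgals9 the matches begin at positions -55 and 16 from the annotated start, and both read on the opposite strand. In Lgals3bp the match begins at position -17. Searched on both strands, GAAANNGAAA occurred in 3.43% and GAAANNNGAAA in 2.75% of 32817 promoter windows of that length. RefSeq windows were found for 9 of the 10 genes, Lgals1 being the exception. None of the other 7, Lgals8 among them, held either motif. A match is a description of these letters and not evidence of a bound factor.

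Levels of different genes were set side by side per gene length, as TPM, in which counts are divided by length and scaled to the same total in every library. Galectin-3 was the leading transcript of the 10. Lgals3 (ENSMUSG00000050335.17, mm10 chromosome 14, 47367751 to 47386160, plus strand) had 2431 ± 953 TPM in shChi3l1 libraries (SD, n = 3) and 2943 ± 485 TPM in shSC libraries (SD, n = 4). It ranked between 34 and 91 among all genes by TPM in the 7 libraries, and first among the 10 genes in every library but shChi3l1 2, where Lgals3bp came first. Lgals3bp followed with 1692 ± 1604 TPM in shChi3l1 (SD, n = 3) and 928 ± 591 TPM in shSC (SD, n = 4), Lgals1 with 591 ± 327 and 1067 ± 360 TPM, and Lgals9 with 491 ± 279 and 467 ± 136 TPM. These last 3 changed places from library to library, so their order was not separated from their spread. Chil3 averaged 165 ± 124 TPM in shChi3l1 and 226 ± 155 TPM in shSC, Tmem219 110 ± 32.0 and 95.3 ± 38.5 TPM, and Lgals8 lay between 24.5 and 56.6 TPM in shChi3l1 and between 39.2 and 52.4 TPM in shSC. Chil3 was above Tmem219 in every library except shChi3l1 3. Chid1 stood 8th, Chil1 9th and Lgals4 10th in all 7 libraries. The annotated exons of Chid1 add up to 10855 bases, which lowers its value per length.

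**Figure D1:**
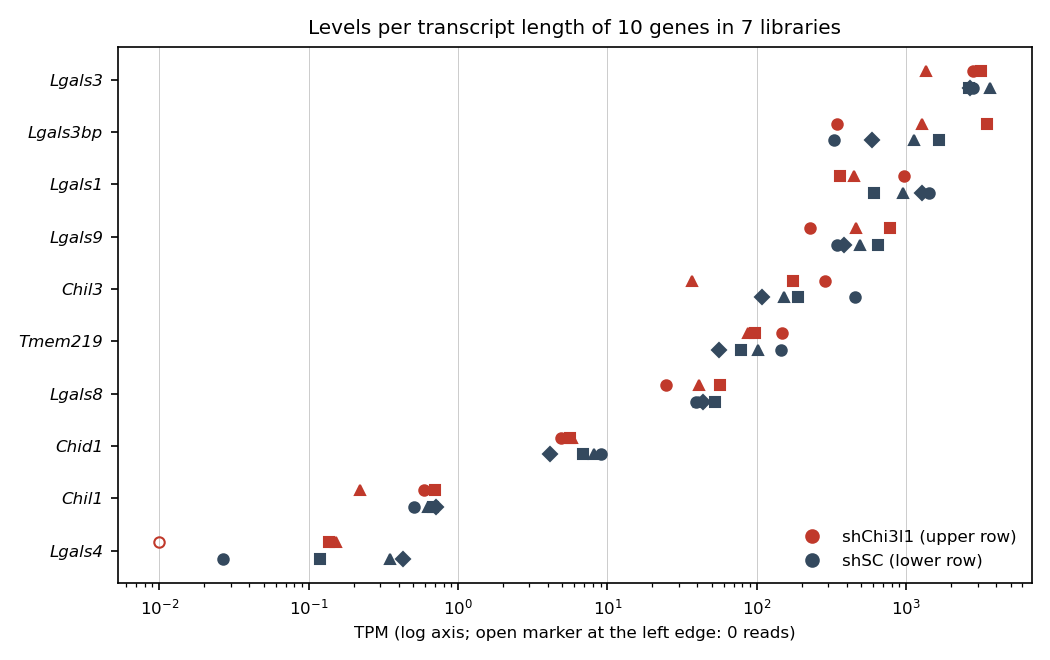
TPM of the 10 genes (log axis) in each library, with shChi3l1 libraries in the upper row of each gene and shSC libraries in the lower row; marker shapes are replicate numbers as circle 1, square 2, triangle 3 and diamond 4. The genes span from Lgals3, at 1349 to 3662 TPM, down to Lgals4, with 0 reads in shChi3l1 1.

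The galectin pool of the macrophages was made up almost wholly of 3 genes. Of the summed TPM of 9 galectin genes, Lgals3 took 66.8 ± 7.32% in shChi3l1 (SD, n = 3) and 64.9 ± 5.00% in shSC (SD, n = 4). Lgals1 took 17.2 ± 8.08% in shChi3l1 and 23.5 ± 7.67% in shSC, and Lgals9 took 14.6 ± 7.80% and 10.5 ± 3.97%. Lgals8 took 1.23 ± 0.589% and 0.989 ± 0.235%, and each of Lgals2, Lgals4, Lgals7, Lgals12 and Lgalsl stayed at or below 0.125% in every library. Among 7 chitinase and chitinase-like genes, Chil3 took 97.9% to 99.7% of TPM in shChi3l1 libraries and 99.2% to 99.8% in shSC libraries. The chitinase gene Chia1 had no read in any library, and Chit1 had reads in shSC 2 alone, where there were 9. Chil4 lies near Chil3 and is a close copy of it, so reads of the pair can be misassigned; it had at most 16 reads.

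None of the 9 genes that could be tested differed between hairpins at the adjusted threshold of 0.05, and no other gene did in edgeR. CPM are read counts divided by library totals scaled by the trimmed mean of M values (TMM), and serve for comparing 1 gene between libraries. Of 15448 genes tested with edgeR's quasi-likelihood test, 0 were called, which is 0%, and 0 of the 9 tested genes of this set were called. The smallest adjusted p over all genes was 0.9998, and every one of the 9 had that value too. Before adjustment, p was under 0.05 for 229 genes, or 1.48% of those tested, and for 0 of the 9. Limma's voom, weighted by sample quality, called 0 genes and had 701 under that unadjusted level. In DESeq2's Wald test 350 genes were under it and 1 was called, the immunoglobulin segment Igkv4-58 (adjusted p = 2.6e-05), singled out after its values were seen. Of the 9 genes 5 had a higher and 4 a lower fitted mean in shChi3l1, with a median log2 fold change of 0.0042 beside 0.07 for all tested genes. The groups did not overlap in 2.49% of tested genes, 1.24% higher and 1.25% lower in shChi3l1, and in 0 of the 9. Lgals4 did not pass the filter on low counts and was not tested. Without shChi3l1 3 and shSC 4, the libraries with the most microglia and the most tumour and glial markers, log2 fold changes were 0.38 for Chil1, 0.058 for Chil3, -0.37 for Chid1, 0.46 for Tmem219, -0.24 for Lgals1, 0.24 for Lgals3, 1.00 for Lgals3bp, 0.062 for Lgals8 and 0.19 for Lgals9, again with 0 genes called.

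Depth and purity bear on all values. Libraries held 23174989 to 36502664 gene-assigned reads in shChi3l1 and 19169129 to 32590781 in shSC. Macrophage markers were abundant, with all 10 above 0 in every library and summed levels of 24308 to 45829 CPM in shChi3l1 and 19702 to 29838 CPM in shSC, led by the lysozyme gene Lyz2. Microglia markers summed to 4690 CPM in shChi3l1 3, and to 1249 and 2336 CPM in shChi3l1 1 and 2, against 1024 to 1710 CPM in shSC, with all 9 detected throughout. All 9 had a higher fitted mean in shChi3l1, 5 of them at an unadjusted edgeR p below 0.05, beside 1.48% of all tested genes. The sum in shChi3l1 1 nevertheless lay inside the shSC range. Of the 9 tested genes of the set, Chil1, Chil3 and Lgals3 were lowest in shChi3l1 3; whether the microglia share played a part was not tested. Tumour and glial markers ranged in sum from 52.6 to 102 CPM in shChi3l1, against 353 CPM in shSC 4 and from 50.4 to 87.1 CPM in shSC 1 to 3, with at most 1 of 14 at 0 in a library and Fabp7 the most abundant. Monocyte markers, led by Plac8, summed to 1089 to 3163 CPM in shChi3l1 and 519 to 1843 CPM in shSC. B-cell markers, led by Cd79a, ranged from 26.3 to 325 CPM in shChi3l1 and from 17.0 to 195 CPM in shSC. T- and NK-cell markers, led by Cd3g, summed to 57.5 to 201 CPM in shChi3l1 and 27.7 to 254 CPM in shSC, and dendritic-cell markers, led by Ccr7, to 537 to 832 CPM and 218 to 1314 CPM. Endothelial and mural markers, led by Cldn5, summed to 19.8 to 94.2 CPM in shChi3l1 and 23.0 to 73.8 CPM in shSC. In sorted bulk samples, fewer cells of a type and less RNA per cell cannot be told apart.

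**Figure D2:**
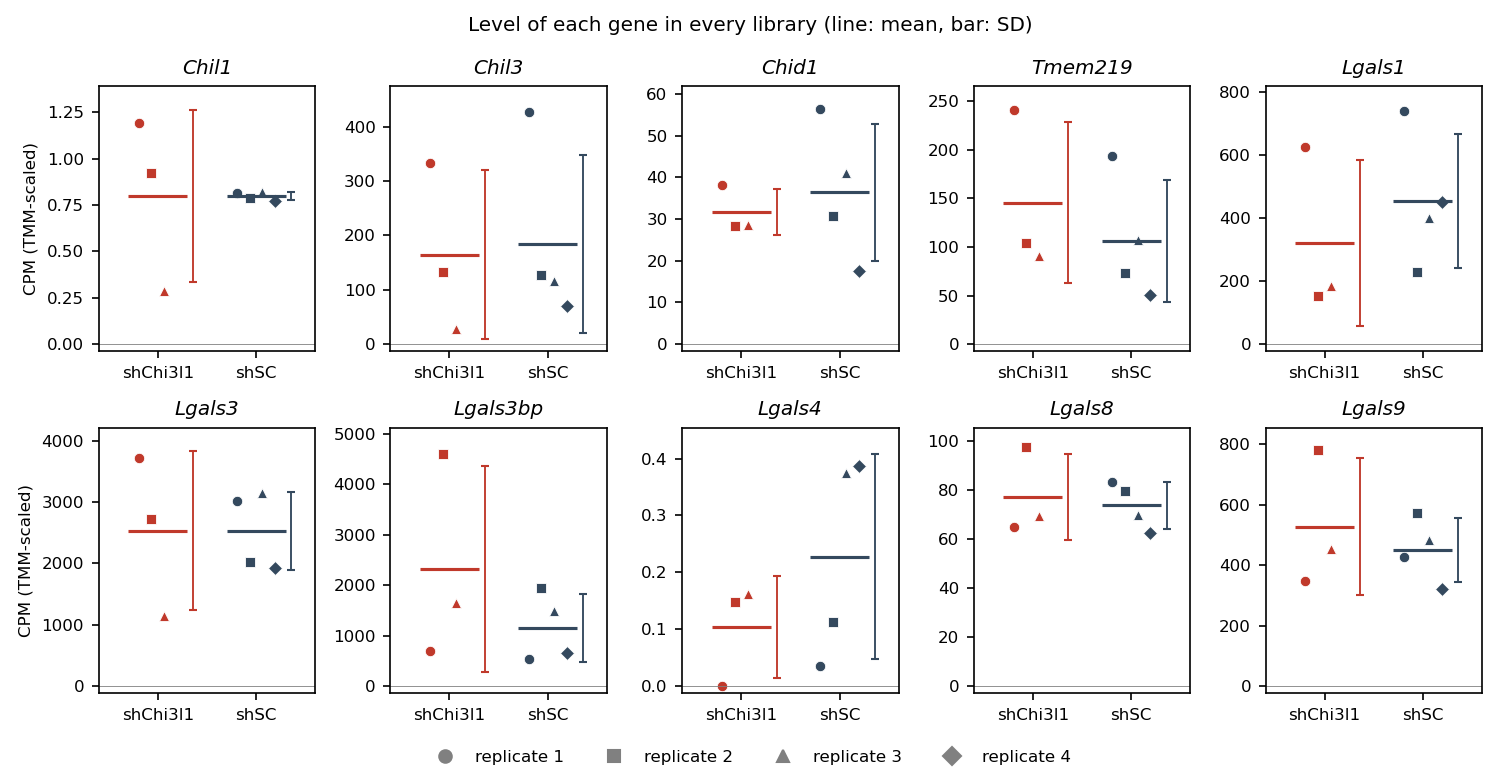
CPM (TMM-scaled, linear axes from 0) of each of the 10 genes in every library, with shChi3l1 on the left and shSC on the right; points are libraries, lines means and bars SD. The groups overlap in every panel, and replicate 1 of both groups is at the top of its group for Chil3, Tmem219, Chid1 and Lgals1.

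Chil1, the target of the hairpin in the tumour cells, had few reads in the macrophages of both groups, from 7 to 31 per library. Chil1 (plus strand of chromosome 1, 134182176 to 134190181 in mm10, ENSMUSG00000064246.10) had 1.19, 0.921 and 0.285 CPM in shChi3l1 1, 2 and 3, against 0.816, 0.790, 0.819 and 0.774 CPM in shSC 1 to 4. The lowest value rests on 7 reads, with an exact 95% Poisson interval of 0.114 to 0.586 CPM, and the highest on 28 reads, with an interval of 0.792 to 1.72 CPM. Both intervals cover counting error only. ShChi3l1 3 was therefore below all 4 shSC libraries and the other 2 shChi3l1 libraries above them, so the spread lay within the knockdown group. On the log2 scale the fold change was 0.00 (SE 0.66), with a 95% interval from -1.48 to 1.48. Tumour and glial markers were highest in shSC 4, where Chil1 had 18 reads and an exact Poisson interval of 0.459 to 1.22 CPM. Whether tumour cells contributed Chil1 reads was not tested. The knockdown was made in the tumour cells, and a level in host macrophages is no check of it.

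Chil3 encodes Ym1, a secreted lectin of mouse macrophages and neutrophils that is widely used as a marker of alternative activation, and it varied most among the 9 tested genes of the set. Chil3 (ENSMUSG00000040809.10, mm10 chromosome 3, 106147554 to 106167564, minus strand) had 333, 133 and 27.7 CPM in shChi3l1 1, 2 and 3, against 427, 127, 115 and 69.5 CPM in shSC 1 to 4. The first replicate was the highest of each group, shChi3l1 3 was the lowest of all, and the groups overlapped. Levels ranged 15.4-fold over the 7 libraries and 6.14-fold within shSC alone, beside a median range of 2.79-fold over the 7 libraries among 6869 tested genes with a mean of at least 10 CPM. Chil3 had a log2 fold change of -0.17 (SE 0.83), with a 95% interval from -2.03 to 1.70. Its sign depended on single libraries: it was 0.63 without shSC 1 and 0.33 without shChi3l1 3, and was -1.28 without shChi3l1 1 (edgeR adjusted p = 0.754). Within same-numbered replicates the log2 differences were -0.36, 0.06 and -2.05. With replicate blocks it was -0.76, where the unblocked value without shSC 4 was -0.44. Neutrophil markers, whose cells also make Ym1, summed to 8.17 to 74.2 CPM in shChi3l1 and 13.6 to 37.7 CPM in shSC. S100a8 was the most abundant of the 11, Ly6g and Elane stayed at or below 0.213 and 1.59 CPM, and 1 to 7 markers were at 0 in a library. In shChi3l1 1 S100a8 alone had 67.4 CPM, where S100a9 had 0.170 CPM. Of 4 tested neutrophil markers, 1 was higher and 3 were lower in shChi3l1, with 0 called. Their part in the Chil3 level was not tested. Microglia markers were highest in the library with the least Chil3, and their part was not tested either.

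Other genes of alternative activation did not share a direction. Of 9 tested, 4 were higher and 5 lower in shChi3l1, with 0 called and a median log2 fold change of -0.50 beside 0.07 for all tested genes. Arg1, the arginase gene and the most abundant of them, had 401, 17.9 and 18.1 CPM in shChi3l1 1 to 3, against 1170, 115, 39.8 and 508 CPM in shSC 1 to 4. Like Chil3 it was highest in the first replicate of each group. Its log2 fold change was -1.65 (SE 1.35). Ccl24, an eosinophil-attracting chemokine gene, had the smallest unadjusted p of the list (0.0238) and a log2 fold change of -5.40 (SE 2.00). It had 3.62 to 17.3 CPM in shChi3l1, against 1260 CPM in shSC 1 and 1.09 CPM in shSC 3. Retnla, another classical marker, had at most 0.461 CPM in any library. Eosinophil and mast cell markers, led by Ear2, summed to 31.1 to 82.2 CPM in shChi3l1 and 16.3 to 82.6 CPM in shSC.

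Chid1 and Tmem219, which encode a lysosomal chitinase-domain protein and a receptor component of chitinase-3-like-1, were read at moderate levels and overlapped between groups. Chid1 (ENSMUSG00000025512.15, mm10 chromosome 7, 141493136 to 141539857, minus strand) had 38.0, 28.4 and 28.6 CPM in shChi3l1 1 to 3, against 56.4, 30.8, 40.9 and 17.5 CPM in shSC 1 to 4. The shChi3l1 libraries lay inside the shSC range. Its log2 fold change was -0.20 (SE 0.41), with 0.07 when shSC 1 was left out, and the differences within pairs were -0.57, -0.12 and -0.52. With replicate blocks it was -0.40, and without shSC 4 alone -0.43. Tmem219 (ENSMUSG00000060538.14, mm10 chromosome 7, 126886171 to 126922917, minus strand) had 241, 104 and 91.0 CPM in shChi3l1 1 to 3, against 193, 73.6, 107 and 50.3 CPM in shSC 1 to 4. Both groups were highest in replicate 1. Tmem219 had a log2 fold change of 0.45 (SE 0.53), which was -0.18 without shChi3l1 1 and 0.89 without shSC 1. The annotated gene Gm20650 covers 8.64% of the exon bases of Tmem219. Tspan4 covers 2.69% of those of Chid1, and Heatr1 covers 4.2% of those of Lgals8. Within pairs the differences were 0.32, 0.50 and -0.24, with 0.19 under replicate blocks and 0.22 without shSC 4 alone.

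The receptor chain that pairs with TMEM219 was not detected. Il13ra2, which encodes interleukin-13 receptor alpha 2, had 0 reads in all 7 libraries, where, taking 3 reads as the limit of a count of 0, the level could reach 0.0891 to 0.128 CPM in shChi3l1 and 0.0847 to 0.129 CPM in shSC. Ptgdr2, another described receptor of chitinase-3-like-1, had at most 0.203 CPM. The related Il13ra1 was present at 123 to 219 CPM in shChi3l1 and 85.5 to 120 CPM in shSC, without overlap between groups, as for 1.24% of tested genes, and with a log2 fold change of 0.56 (SE 0.33) and an unadjusted p of 0.124. These 3 genes were singled out with their values known. Of 6 tested receptor and partner genes of chitinase-like proteins, 4 were higher and 2 lower in shChi3l1, 0 were called, and the median log2 fold change was 0.47. Sdc4, a syndecan gene and the most abundant, had 128 to 185 CPM in shChi3l1 and 117 to 453 CPM in shSC. Sdc1, of smallest unadjusted p, had 21.0 to 51.8 CPM in shChi3l1 and 3.26 to 22.7 CPM in shSC, with overlap at the library shChi3l1 1.

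Lgals1 encodes galectin-1, a small dimeric lectin known to kill activated T cells, and it was lower in shChi3l1 in each same-numbered pair. Lgals1 (ENSMUSG00000068220.6, mm10 chromosome 15, 78926725 to 78930465, plus strand) had 625, 152 and 185 CPM in shChi3l1 1 to 3, against 739, 228, 399 and 452 CPM in shSC 1 to 4. ShChi3l1 2 and 3 lay below the whole shSC group and shChi3l1 1 lay near its top, so the groups overlapped. Lgals1 had a log2 fold change of -0.50 (SE 0.59), with a 95% interval from -1.83 to 0.83. Within pairs the log2 differences were -0.24, -0.58 and -1.11. A fit with replicate blocks, which drops shSC 4, gave -0.64 (SE 0.25, unadjusted p = 0.042, edgeR adjusted p = 1). Without shChi3l1 1 it was -1.48, with an edgeR adjusted p of 0.75. All 3 pairs of a gene went the same way in 23.2% of tested genes and in 3 of the 9 here, namely Chid1 and Lgals1 lower and Lgals3bp higher.

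Galectin-1 is also the shortest of these transcripts, at 903 bases, and the libraries differed in their share of reads from long genes. Genes over 5000 bases took 12.6% of reads in shChi3l1 1 and 18.6% and 20.7% in the other shChi3l1 libraries, against 14.8% in shSC 1 and 16.8% to 19.9% in the other shSC libraries. The first replicate of each group thus had the least. With each library's trend on gene length removed, the Lgals1 log2 fold change was -0.67 (SE 0.44), and that of Chid1, the longest, was -0.53 (SE 0.64). The 2 genes closest to Lgals1 in pattern over the 7 libraries were Rfc4, of a DNA clamp loader, and Cks1b, of a cyclin-dependent kinase complex. Their gene-centred log2 CPM differed from that of Lgals1 by a root mean square of 0.12 and 0.13, beside a median of 1.00 over 8484 genes.

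Galectin-3, encoded by Lgals3, is the chimeric galectin with a self-associating tail, secreted in large amounts by activated macrophages. Lgals3 had 3726, 2732 and 1149 CPM in shChi3l1 1 to 3, against 3010, 2029, 3149 and 1925 CPM in shSC 1 to 4. ShChi3l1 3 was the lowest library and shChi3l1 1 the highest, with all shSC libraries between them. The fitted log2 fold change was 0.0042 (SE 0.46), with a 95% interval from -1.03 to 1.03, a value too near 0 for its sign to hold across settings. It was -0.43 with voom's sample weights and 0.24 without shChi3l1 3 and shSC 4, and lay between -0.42 and 0.35 when 1 library was left out. Within pairs the log2 differences were 0.31, 0.43 and -1.45. Cd63, a gene of endosomal and lysosomal membranes, was nearest to Lgals3 in pattern (root mean square 0.16, median 0.71), and A130010J15Rik came next at 0.18. Chil1 was the nearest of the other 8 tested genes, at 0.25, and in reverse Lgals3 was among the 2 nearest of 8485 genes to Chil1. That likeness rests on 7 to 31 reads of Chil1 per library.

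Lgals3bp encodes the galectin-3 binding protein, a secreted scavenger-receptor cysteine-rich glycoprotein that binds galectin-3 and is induced by interferon. It had the largest fitted difference of the 9 genes, carried by 1 library. Lgals3bp (ENSMUSG00000033880.11, mm10 chromosome 11, 118392751 to 118402092, minus strand) had 697, 4612 and 1657 CPM in shChi3l1 1 to 3, against 544, 1951, 1484 and 659 CPM in shSC 1 to 4. ShChi3l1 2 was higher than every other library, and the remaining 2 shChi3l1 libraries lay inside the shSC range. Lgals3bp had a log2 fold change of 1.00 (SE 0.68), with a 95% interval from -0.53 to 2.53 (edgeR adjusted p = 0.9998). Without shChi3l1 2 it was 0.016, and without shChi3l1 1 it was 1.41 (edgeR adjusted p = 0.75). The log2 differences within pairs were 0.36, 1.24 and 0.16, and the replicate block gave 0.58 (SE 0.29, unadjusted p = 0.089). That fit also drops shSC 4, without which the unblocked value was 0.80.

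Relative to its ligand, the binding protein ranged widely in both groups. The ratio of Lgals3bp to Lgals3 in CPM was 0.187, 1.69 and 1.44 in shChi3l1 1 to 3, against 0.181, 0.962, 0.471 and 0.342 in shSC 1 to 4. Replicate 1 had the lowest ratio in each group, and shChi3l1 2 and 3 lay above all shSC libraries. The mean ratio was 1.11 ± 0.805 in shChi3l1 (SD, n = 3) and 0.489 ± 0.337 in shSC (SD, n = 4). An exact two-sided permutation test of the log2 ratio gave p = 0.4. Its 35 splits allow only coarse p-values.

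Galectin-9, encoded by Lgals9, is a tandem-repeat galectin and a ligand of the T-cell and myeloid receptor TIM-3. Lgals9 (ENSMUSG00000001123.15, mm10 chromosome 11, 78962974 to 78984946, minus strand) had 348, 781 and 454 CPM in shChi3l1 1 to 3, against 426, 572, 483 and 321 CPM in shSC 1 to 4. ShChi3l1 2 was again the highest library, and the other shChi3l1 libraries lay inside the shSC range. The log2 fold change was 0.23 (SE 0.39), with a 95% interval from -0.66 to 1.11, and without shChi3l1 2 it was -0.18. Within pairs the differences were -0.30, 0.45 and -0.09, with 0.020 under replicate blocks and 0.093 without shSC 4 alone. Havcr2, the gene of TIM-3, had 26.8, 162 and 117 CPM in shChi3l1 1 to 3, against 44.1, 138, 80.6 and 87.0 CPM in shSC 1 to 4. Its log2 fold change was 0.22 (SE 0.59), and it was named here with its values known.

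Several interferon-stimulated genes were highest in the same library as Lgals3bp and Lgals9. Of the 12 in the list, 11 were higher and 1 lower in shChi3l1, with 0 called and a median log2 fold change of 0.35 beside 0.07 for all tested genes. ShChi3l1 2 was the highest library for 7 of the 12, as it was for Lgals3bp, Lgals8 and Lgals9, and for 18.4% of all tested genes. Oasl2, an antiviral gene picked out with its values known, had 75.4, 353 and 173 CPM in shChi3l1 1 to 3, against 88.9, 221, 107 and 69.2 CPM in shSC 1 to 4. Ifit2, the list gene of smallest unadjusted p (0.215), had 49.6, 166 and 64.1 CPM in shChi3l1 and 40.5 to 97.5 CPM in shSC. Other genes of the list behaved differently. Isg15 was highest in shChi3l1 1, with 609 CPM, and Cxcl10, the most abundant, had 520 to 1224 CPM in shChi3l1 and 442 to 969 CPM in shSC. By the fixed rule of likeness, Lgals3bp was closest to Grasp and Trim12c (root mean square 0.31 and 0.33, median 1.00). Lgals9 was closest to Ghdc and Nek6 (0.09 for each, median 0.59). The windows printed above show GAAA half-site pairs in both promoters, and no measurement here bears on their use.

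**Figure D3:**
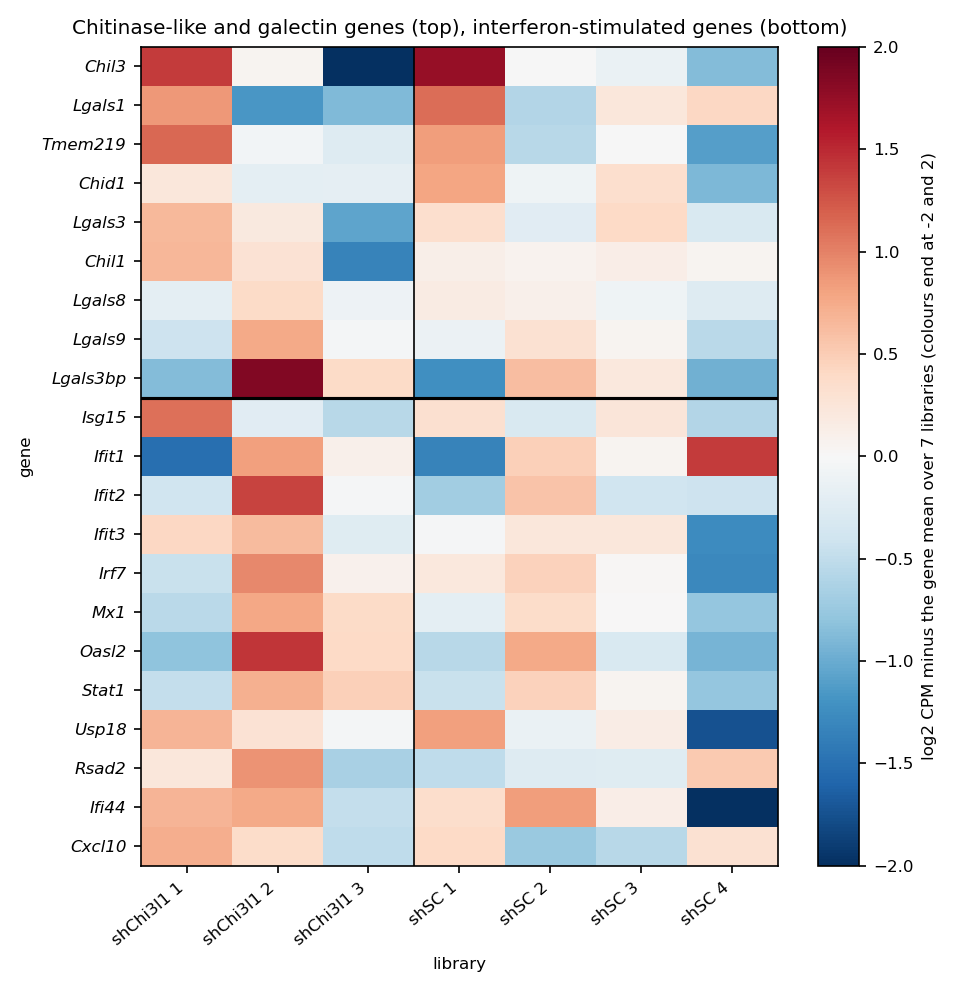
Gene-centred log2 CPM of the 9 tested genes (above the black line) and 12 interferon-stimulated genes (below it) in the 3 shChi3l1 and 4 shSC libraries; red is above and blue below the gene's mean, and colours end at -2 and 2. Lgals3bp and Lgals9 are highest in shChi3l1 2, while Chil3 is highest in shSC 1, with 1.75, and lowest in shChi3l1 3, with -2.19.

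Lgals8 had the narrowest range of CPM among the 9 tested genes; in TPM it ranged more widely. It encodes galectin-8, a tandem-repeat galectin that marks damaged vesicles for autophagy. Lgals8 (ENSMUSG00000057554.13, mm10 chromosome 13, 12439415 to 12464944, minus strand) had 64.9, 97.5 and 69.4 CPM in shChi3l1 1 to 3, against 83.4, 79.6, 70.0 and 62.3 CPM in shSC 1 to 4. All 7 libraries lay within a 1.56-fold range of CPM. Its log2 fold change was 0.07 (SE 0.30), with a 95% interval from -0.61 to 0.74. Becn1, the gene of the autophagy protein beclin 1, was the closest of 8484 genes in pattern, with a root mean square of 0.06, and Pon2 came next with 0.08. The median for Lgals8 was 0.53, the lowest of the 9.

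Lgals4, the gene of galectin-4, a lectin of gut epithelium, was barely present. Lgals4 (ENSMUSG00000053964.17, mm10 chromosome 7, 28833854 to 28841708, plus strand) had 0, 5 and 4 reads in shChi3l1 1 to 3, against 1, 4, 11 and 9 reads in shSC 1 to 4. Its highest level, in shSC 4, was 0.387 CPM, with an exact Poisson interval of 0.177 to 0.735 CPM. On a limit of 3 reads the 0 in shChi3l1 1 allows up to 0.128 CPM, and its exact Poisson interval ends at 0.157 CPM. No difference was detectable at this depth. Epithelial markers, led by Cdh1, summed to 3.66 to 23.8 CPM in shChi3l1 and 6.38 to 19.1 CPM in shSC, with Krt8 at or below 0.366 CPM.

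**Figure D4:**
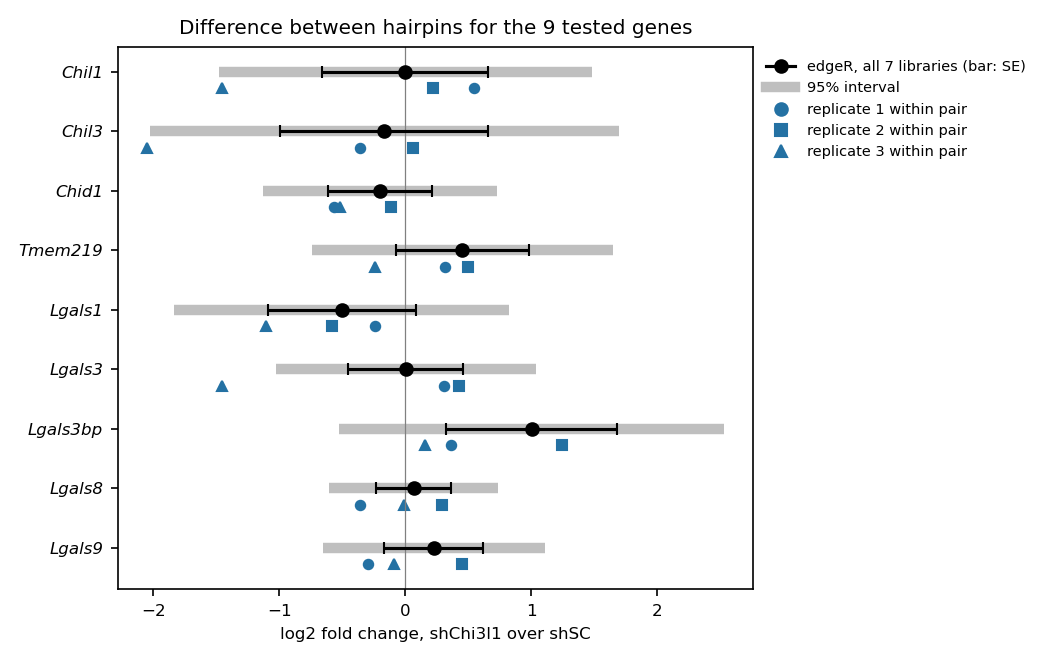
Log2 fold change of shChi3l1 over shSC for the 9 tested genes: black points are the edgeR fit over 7 libraries with SE bars, grey bars are 95% intervals, and blue markers below are the differences within same-numbered replicates 1 to 3. Every interval spans 0, and the widest spread within pairs is that of Chil3, from -2.05 to 0.06.

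Partners through which galectins act were mostly higher in shChi3l1 without passing the test. Of 14 tested receptor and partner genes of galectins, 12 were higher and 2 lower, with 0 called and a median log2 fold change of 0.37. Among all tested genes 8895 were higher and 6553 lower. The macrophage markers leaned the same way, with 10 of 10 higher, 0 called and a median log2 fold change of 0.27. Itgam and Mertk stand in both lists, so a direction particular to galectin partners is not shown. Lamp1, a heavily glycosylated lysosomal membrane protein that binds galectin-3, had 205, 489 and 170 CPM in shChi3l1 1 to 3, against 119, 156, 99.6 and 97.7 CPM in shSC 1 to 4. Every shChi3l1 library was above every shSC library, as for 1.24% of tested genes. Its log2 fold change was 1.28 (SE 0.43, unadjusted p = 0.015, edgeR adjusted p = 0.9998). Lamp2, its relative and the most abundant of the list, had 572 to 982 CPM in shChi3l1 and 470 to 811 CPM in shSC, with overlap.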

How the data were processed

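Macrophages were sorted by flow cytometry after digestion of tumours for 15 min at 37 °C, and cDNA from 10 ng of RNA was amplified with a SMART-Seq kit and made into Nextera XT libraries from 1 ng, per the labels' protocols. The antibodies of the gate were not stated. The kit does not mark strand, and amplified copies are not independent molecules. What the authors deposited are raw counts, 1 whole number per gene and library, beside gene lengths in bases. Trim Galore, HISAT2, featureCounts and mm10 are named in the submitters' processing notes; no version is given in the sources used here. Of 55385 IDs, 55144 had a symbol in GENCODE release M21; IDs without one took at most 0.00179% of a library's reads.

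Counts were filtered with filterByExpr (minimum count 10), TMM-scaled and tested over the 7 libraries, without covariates, by edgeR 4.0.16's quasi-likelihood F test in R 4.3.3, with Benjamini-Hochberg adjustment over 15448 genes. SE were derived from F, and 95% intervals from its degrees of freedom. A count of 0.5 was added before logarithms of single libraries. TPM were computed from counts and lengths. Alternatives used DESeq2 1.42.0, limma 3.58.1 and other filters, scalings and library sets. The test was tried on simulated counts before use. The genes and gene lists were chosen with earlier results of these data known. Genes were named mainly by rule. It took the 10 themselves, and the list gene of smallest p and the most abundant one. For each tested gene it also took the 2 protein-coding genes nearest in pattern (mean log2 CPM of at least 2). Those of Chil3, Chid1 and Tmem219 are not printed, and for Chil1 only Lgals3 is. The labels call replicates 1 to 3 paired in a figure. Deviations from group means correlated at 0.306, 0.26 and 0.188 within pairs. Libraries of different numbers were not correlated, so these values cannot show whether the numbers mark pairs. The numbers were taken as pairs in alternatives only.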

Additional observations from a re-analysis of the deposited data

Results flagged for a closer look

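In linear CPM, Chil3 in shSC 1 stood apart from the other control libraries. It had 427 CPM there, against 69.5 to 127 CPM in shSC 2 to 4, and the gap to the nearest library was 0.839 of the group's range, above Dixon's 95% limit for 4 samples. Without shSC 1 the log2 fold change of Chil3 was 0.63 in place of -0.17. The 9 tested genes were examined in this way, and chance marks an occasional group. ShChi3l1 1 was also high, with 333 CPM, and its group of 3 is too small for this test. The ratio was taken on linear CPM, whereas fold changes are on the log2 scale. Gene-centred log2 CPM of Chil3 were 1.75, -0.00021, -0.14 and -0.87 in shSC 1 to 4. On that scale the gap is a smaller part of the range and lies below Dixon's limit. The flag for shSC 1 therefore depends on the scale.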

How the results depend on the processing

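No setting called any of the 9 tested genes. The count of all called genes was 0 in each, except 1 with DESeq2's Wald test. Leaving out 1 library kept both counts at 0 (range 0 to 0, smallest edgeR adjusted p 0.75). Log2 fold changes then ranged from -0.44 to 0.39 for Chil1, -1.28 to 0.63 for Chil3, -0.43 to 0.072 for Chid1, -0.18 to 0.89 for Tmem219, -1.48 to -0.18 for Lgals1, -0.42 to 0.35 for Lgals3, 0.016 to 1.41 for Lgals3bp, -0.14 to 0.14 for Lgals8 and -0.18 to 0.42 for Lgals9. The Lgals3 value, near 0, turned negative with size factors of DESeq2 (-0.047) or upper quartiles (-0.019), without a filter on low counts (-0.088), with the stricter filter (-0.0016), and with DESeq2 (-0.047), voom (-0.43), the replicate block (-0.22), length offsets (-0.0098) and both together (-0.18). Under DESeq2's size factors the median of all genes moved to 0.018, a fall like that of Lgals3, and without a filter it was -0.09, both in place of 0.07. With voom Chil3 was at -0.93, Chil1 at -0.53 and Lgals1 at -0.90. With the replicate block Chil1 was at -0.20, and without shSC 4 alone at -0.015. Lgals8 turned to -0.028 with the replicate block and -0.055 with block and length offsets. Without shChi3l1 3 and shSC 4 Chil1 was at 0.38 and Chil3 at 0.058. The causes were not tested. The block, with shSC 4 dropped, changed no call. Length offsets were added after the data had been seen. Chil1 and Lgals4 are limited by depth.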

Other observations

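Enzymes that build the glycans bound by galectins were present and did not differ beyond their spread. Of 10 tested, 6 were higher and 4 lower in shChi3l1, with 0 called and a median log2 fold change of 0.29. Mgat2, which starts the second antenna of N-glycans and was the most abundant, had 130 to 146 CPM in shChi3l1 and 93.0 to 203 CPM in shSC. Mgat4a, a branching enzyme gene of smallest unadjusted p (0.0979), had 39.7 to 103 CPM in shChi3l1 and 33.9 to 53.9 CPM in shSC. Mgat5, whose branches galectin-3 binds well, had 7.49 to 15.8 CPM in shChi3l1 and 7.20 to 17.5 CPM in shSC, and was chosen with its values known.

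Other genes of both families were few. Ctbs, of the lysosomal enzyme di-N-acetylchitobiase, was the only 1 of 7 other chitinase family genes with enough reads to test, with 36.6, 33.1 and 13.4 CPM in shChi3l1 1 to 3, against 34.4, 17.3, 18.6 and 21.5 CPM in shSC 1 to 4. Of 5 other galectin genes in the files 2 were tested, 1 higher and 1 lower. Lgalsl, the more abundant, had 1.63 to 3.23 CPM in shChi3l1 and 2.77 to 4.71 CPM in shSC.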
